A study of Rattus norvegicus with 26 samples.

Results

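The central myelin protein genes followed here were Mbp, Mog, Mag, Mobp, Cnp, Opalin, Ermn, Mal and Cldn11, 9 genes taken by name from the 32883 genes of a joint count table of rat spinal cord. Each name matched 1 gene, and all 9 passed the filter on low counts, with at least 1028 counts in every library. Together they took up 4.04% ± 0.253 (SD, n = 4) of all counts in the uninjured cord, of which Mbp alone made up 3.19% ± 0.203.

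Myelin is the multilayered membrane that oligodendrocytes wrap around axons of the central nervous system, where it speeds conduction and keeps axons supplied. Its proteins serve distinct places in the sheath: myelin basic protein and MOBP hold the compacted layers together at their cytoplasmic faces, MAG faces the axon, MOG lies on the outermost surface, CNP keeps cytoplasmic channels open, and claudin-11 forms the tight junctions between the wraps. Spinal cord compression kills oligodendrocytes and strips axons of myelin, and new oligodendrocytes can form from precursors that survive in the cord. Schwann cells, which make the myelin of peripheral nerve, can enter an injured cord and also use Mbp, Mag, Cnp and Mal, while Mog, Mobp, Opalin, Ermn and Cldn11 are best known from the central sheath.

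The animals were wild-type adult female Sprague-Dawley rats, labelled as postnatal day 70 and weighing 250 g. The injured groups had a clip of 60 g closed on the cord at T10 for 1 min and, per the study's methods, daily cyclosporin A against rejection of human cells. The groups were the uninjured or sham-operated cord (Intact, n = 4), the injured cord at day 7 before any injection (sub-SCI, n = 3), and cords taken 1, 2 and 4 weeks after transplantation (wpt), for which rats had received an intrathecal injection at day 7 of PBS (+PBS, n = 3, 2 and 4) or of mesenchymal stem cells from human umbilical cord (hUC-MSCs; +MSC, n = 3, 3 and 4). RNA came from 5 mm of whole cord around the lesion, so that fewer oligodendrocytes and less RNA per oligodendrocyte cannot be told apart, and poly(A) RNA was sequenced. Whether cyclosporin A was also given to Intact rats was not given in the sources used here.

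The 26 libraries held 19496602 to 43468509 counts. Levels below are given as CPM, counts brought to a common library size with edgeR's TMM factors. Some libraries were unlike others of their group. By a chi-square of the counts per degree of freedom over genes, in which sampling noise alone gives values near 1, +PBS-4w replicate 1 was at 186 or more from each other +PBS-4w library, +PBS-1w replicate 3 at 133 or more, and sub-SCI replicate 3 at 87.2 or more. The closest pair of all was +MSC-2w replicates 2 and 3 at 6.34, followed by 2 Intact libraries at 14.9. That pair differed beyond sampling noise and was kept as 2 libraries, as labelled. Whether both came from 1 rat cannot be told from this measure. The cord markers were present: 10 neuron markers summed to between 11863 and 14191 CPM in Intact, and 10 microglia and macrophage markers to between 322 and 646 CPM. Peripheral myelin genes were present too, and unevenly, since 8 Schwann cell myelin genes summed to between 171 and 1757 CPM in Intact.

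RefSeq sequence upstream of the transcription start (build GRCr8) was at hand for 7 of the 9 genes, and 3 stretches of 250 bases are shown because they belong to the gene with the largest fall after injury (Mobp), the gene that fell and then overlapped Intact again (Opalin) and the gene that overlapped Intact in every group (Cldn11). Capitals mark matches on either strand to a SOX core (ACAANG), the MYRF motif (CTGGCAC), an E-box (CAGCTG) and a GC box (GGGCGG), chosen because SOX10, MYRF and OLIG2 drive myelin genes in oligodendrocytes. They lie at chr8:128746982-128747231 on the plus strand, at chr1:249858191-249858440 on the minus strand and at chr2:114149540-114149789 on the minus strand.
Mobp: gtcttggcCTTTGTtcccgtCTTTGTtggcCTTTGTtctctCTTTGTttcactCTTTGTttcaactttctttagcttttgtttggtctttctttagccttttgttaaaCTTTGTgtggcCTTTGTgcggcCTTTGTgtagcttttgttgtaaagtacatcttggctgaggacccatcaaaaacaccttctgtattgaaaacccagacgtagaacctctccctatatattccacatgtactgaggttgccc
Opalin: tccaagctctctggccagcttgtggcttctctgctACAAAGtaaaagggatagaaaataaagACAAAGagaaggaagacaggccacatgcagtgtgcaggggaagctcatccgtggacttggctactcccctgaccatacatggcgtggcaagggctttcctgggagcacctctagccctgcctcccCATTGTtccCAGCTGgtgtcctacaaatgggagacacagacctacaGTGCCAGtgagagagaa
Cldn11: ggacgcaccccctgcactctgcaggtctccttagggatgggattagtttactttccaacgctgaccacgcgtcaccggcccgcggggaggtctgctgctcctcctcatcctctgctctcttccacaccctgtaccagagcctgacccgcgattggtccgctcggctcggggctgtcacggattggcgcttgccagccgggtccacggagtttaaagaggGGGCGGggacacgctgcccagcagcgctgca

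Mobp held 8 SOX cores, all of them in the orientation CTTTGT, and none of the other motifs. Opalin held 3 SOX cores, 1 MYRF motif and 1 E-box. Cldn11 held a single GC box and no SOX core, MYRF motif or E-box. Over the 300 bases around the start, 5 of the 7 genes had a SOX core and 4 had the MYRF motif (Mag, Opalin, Mal and Cnp), against 34.9% and 5.2% of 15377 RefSeq promoters of that length. An E-box was found in 3 genes and a GC box in 4, against 16.4% and 51.8% of promoters, and a TATA box (TATAAA) in 0 against 9.82%. Mbp had more than 1 such window, so 8 windows were searched for the 7 genes. Of these 8, a SOX core was in 5, the MYRF motif in 4, an E-box in 3 and a GC box in 5. The SOX cores and the E-box of Mbp lay in only 1 of its windows. Such matches describe letters in these windows only.

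The first comparison asked what the subacute lesion had done to these genes before treatment. At day 7, 6 of the 9 genes were differentially expressed (|log2 fold change| above 1 and adjusted p under 0.01, where p comes from the quasi-likelihood test of edgeR and is adjusted after Benjamini and Hochberg) and all 6 had fallen: Mbp, Mog, Mobp, Opalin, Ermn and Mal. Over all 17990 genes tested, 17.5% were called lower in this comparison. The median log2 fold change was -1.40 over the 9 genes and -0.018 over all genes tested. The ranges of 7 genes lay wholly below Intact, as did those of 34% of all genes tested, and Cnp and Cldn11 overlapped it.

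Among the genes of compact myelin, Mbp, which glues the cytoplasmic faces of the membrane together, stood at 32980.5, 34568, 31206 and 35084 CPM in the Intact libraries and at 21991, 14012 and 10679 CPM in sub-SCI (log2 fold change -1.10, SE 0.287, adjusted p = 0.00215, edgeR). The highest injured library was below the lowest Intact library. Mobp, a small basic protein of the same compartment, stood at 2436, 2676, 2535 and 2714 CPM in Intact and at 798, 639 and 467 CPM in sub-SCI (log2 fold change -2.03, SE 0.303, adjusted p = 6.17e-06, edgeR). Mobp was left with 24.5% of its Intact mean, against 46.5% for Mbp. Mal, a proteolipid of lipid-rich membrane that sorts myelin cargo, went from 425, 479.6, 620.2 and 569 CPM to 261, 241 and 94.2 CPM (log2 fold change -1.40, SE 0.29, adjusted p = 0.000262, edgeR), with no overlap of the groups.

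On the surfaces of the sheath the changes were unequal. Mog, the outer-surface immunoglobulin protein, stood at 399, 399.8, 353 and 377 CPM in Intact and at 182, 151 and 98.2 CPM in sub-SCI (log2 fold change -1.41, SE 0.276, adjusted p = 0.000146, edgeR). Mag, the adhesion protein of the innermost wrap, stood at 1318, 1488, 1304 and 1361 CPM against 1154, 781 and 529 CPM (log2 fold change -0.74, SE 0.275, adjusted p = 0.0247, edgeR). Mag did not overlap Intact either, but it passed only the looser threshold of an adjusted p under 0.05, at which 30.9% of all genes tested were lower. Cnp, the phosphodiesterase of the non-compact cytoplasm, likewise passed only that threshold (log2 fold change -0.60, SE 0.248, adjusted p = 0.042, edgeR), and its highest sub-SCI library, 1949.8 CPM, was above the lowest Intact library, 1708 CPM.

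Opalin and Ermn mark mature oligodendrocytes, Opalin being a membrane glycoprotein confined to the central nervous system and Ermn (ermin) a cytoskeletal protein of late myelination. Opalin stood at 180.2, 158, 199.9 and 150.3 CPM in Intact and at 41.8, 83.2 and 34.9 CPM in sub-SCI (log2 fold change -1.69, SE 0.33, adjusted p = 0.000139, edgeR). Ermn stood at 468, 436, 438 and 451 CPM and at 151, 128 and 89.9 CPM (log2 fold change -1.86, SE 0.24, adjusted p = 9.25e-07, edgeR). For both genes every sub-SCI library lay far below every Intact library. Cldn11, the claudin of the myelin tight junctions, did not share in this: it stood at 1193, 1249, 1099.8 and 1371 CPM in Intact and at 1648, 1009 and 918 CPM in sub-SCI, a difference that did not pass the test (log2 fold change -0.043, SE 0.174, adjusted p = 0.845, edgeR). Its sub-SCI libraries lay on both sides of the Intact range.

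The call for Mbp rested on sub-SCI replicates 2 and 3, since leaving out replicate 2 or replicate 3 ended it (log2 fold change of Mbp -1.03 with adjusted p = 0.0128 and -0.89 with adjusted p = 0.0205, edgeR). Without replicate 1 the count was 7, with Mag added. Replicate 3 had the lowest value of all 9 genes in its group and replicate 1 the highest value of 8. In the same libraries 8 fibroblast and scar matrix genes summed to 19528 CPM in replicate 3 and 8020 CPM in replicate 1, against at most 1255 CPM in Intact, and the part of this difference in the myelin values was not tested.

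**Figure D1:**
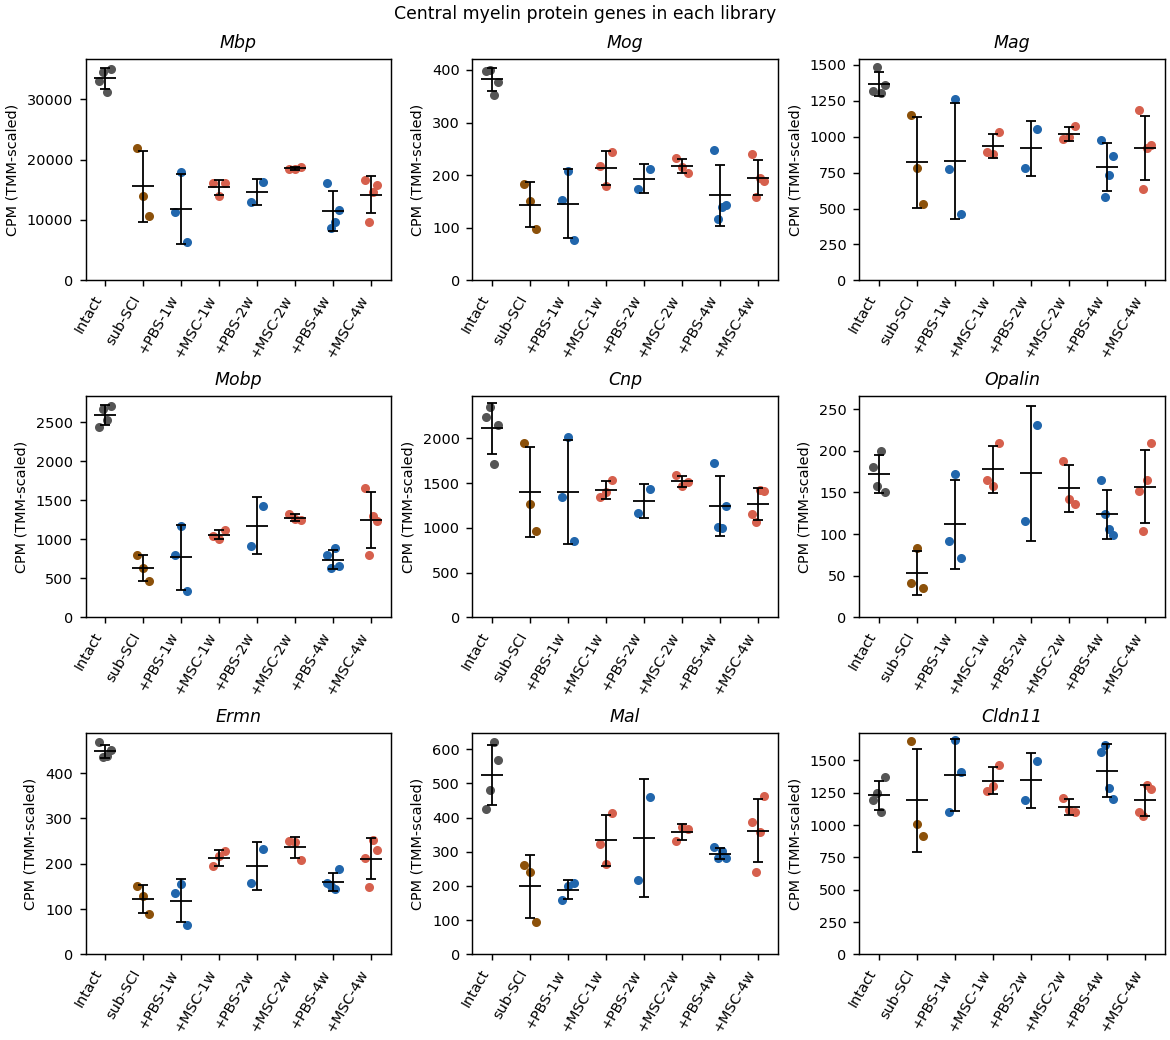
TMM-scaled CPM (y axis, linear from 0) of each of the 9 genes in each library, by group (x axis). Points are libraries, horizontal bars are group means and whiskers are SD. Mobp, Ermn, Mog, Mbp and Mag lie below the Intact points in all 7 injured groups, Opalin lies wholly below Intact in sub-SCI alone, and Cldn11 overlaps Intact in every group.

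After an injection of PBS most of these genes stayed below Intact, and Opalin and Cldn11 overlapped it at each week. The number called lower against Intact was 5 at 1 wpt (Mbp, Mog, Mobp, Ermn and Mal), 2 at 2 wpt (Mbp and Ermn) and 4 at 4 wpt (Mbp, Mog, Mobp and Ermn), where 12.5%, 5.66% and 10.7% of all genes tested were called lower. None was called higher. At the looser threshold 6, 4 and 7 genes were lower, against 26.4%, 17% and 23.9% of all genes, and at each week the ranges of 6 genes lay wholly below Intact, against 30.5%, 31.3% and 21.3%. These comparisons and the one above share the 4 Intact libraries.

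Mobp at 4 wpt stood at 799.8, 627, 884 and 654 CPM in the +PBS libraries (log2 fold change -1.81, SE 0.27, adjusted p = 1.17e-05, edgeR). That is 28.6% of its Intact mean, close to the level before injection. Ermn at 4 wpt stood at 158, 149.9, 144 and 187 CPM (log2 fold change -1.49, SE 0.214, adjusted p = 7.44e-06, edgeR). Mbp stood at 16065, 8695, 9646 and 11713 CPM (log2 fold change -1.54, SE 0.264, adjusted p = 5.62e-05, edgeR), the lowest group mean of this gene. Mog stood at 248, 117, 139 and 144 CPM (log2 fold change -1.24, SE 0.249, adjusted p = 0.000293, edgeR), and its highest +PBS-4w library was still below Intact.

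Mal varied over the weeks of the +PBS series, and the difference between weeks was not tested. Its libraries stood at 159, 199.6 and 209.7 CPM at 1 wpt, 217 and 461 CPM at 2 wpt and 313, 282, 303 and 282 CPM at 4 wpt. The difference from Intact was -1.47 (adjusted p = 0.000233), -0.63 (adjusted p = 0.136) and -0.83 (adjusted p = 0.0106) on the log2 scale by edgeR. One of the 2 libraries at 2 wpt reached the Intact range and the other did not. Mag and Cnp had differences from Intact between -0.79 and -0.57 (Mag) and between -0.76 and -0.59 (Cnp) on the log2 scale, none of them beyond a change of 1. By edgeR the adjusted p at 1, 2 and 4 wpt was 0.0329, 0.160 and 0.0116 for Mag and 0.0505, 0.0601 and 0.00779 for Cnp. Both were thus lower at the looser threshold at 4 wpt, and Mag also at 1 wpt.

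Opalin took another course. Its +PBS libraries stood at 92.1, 172 and 71.2 CPM at 1 wpt, at 115 and 231 CPM at 2 wpt and at 165, 125, 107 and 99.1 CPM at 4 wpt. At each week at least 1 library lay in or above the Intact range, and against Intact the log2 fold changes were -0.62, 0.0074 and -0.47, with adjusted p = 0.106, 0.99 and 0.18 (edgeR). Cldn11 stood between 1100.2 and 1655 CPM over the 9 +PBS libraries, with log2 fold changes of 0.18, 0.13 and 0.21 against Intact, none of which passed the test.

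The 2 wpt group of 2 libraries gave the least certain counts. Without +PBS-2w replicate 1, which had the lower value of every gene, 0 genes were called, and Ermn was then at a log2 fold change of -0.92 with adjusted p = 0.0809 in edgeR. Mbp lost its call in 15 of the 26 fits that left out 1 library, those without any 1 of the Intact libraries among them, and Mobp gained one in 3. At 1 wpt, Mag joined the calls without +PBS-1w replicate 2, and the 5 calls were unchanged without +PBS-1w replicate 3, the library apart from its group. At 4 wpt the same 4 genes were called without +PBS-4w replicate 1.

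In the cords given hUC-MSCs fewer of the genes were called lower than Intact. They numbered 3 at 1 wpt (Mbp, Mobp and Ermn), 0 at 2 wpt and 3 at 4 wpt (Mbp, Mobp and Ermn), where 2.63%, 0.461% and 1.53% of all genes tested were called lower. At the looser threshold 4 genes were lower at 1 wpt and 5 at 4 wpt, against 14.8% and 13.6% of all genes. The ranges of 7, 7 and 6 genes lay wholly below Intact, against 25.5%, 21.3% and 20.4%. The comparisons use the same Intact libraries as those of the +PBS groups, and a call made in one treatment and not in the other does not show that they differ. At 2 wpt, 4 genes (Mbp, Mog, Mobp and Ermn) were lower at the looser threshold of edgeR, where 6.44% of all genes tested were, and the same 4 had an unadjusted p under 0.05, as did 32.5% of all genes in either direction. DESeq2 called 1 (Mobp) on all libraries and 0 on the groups compared, with 4 and 7 genes at its adjusted p under 0.05. The shares of all genes in the DESeq2 fits are not given here, so these DESeq2 counts have no background.

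Mobp stood at 1043, 1011 and 1122 CPM at 1 wpt, 1327, 1265 and 1247 CPM at 2 wpt and 1659.7, 798, 1304 and 1233 CPM at 4 wpt. The largest of these was well short of the smallest Intact value, and the log2 fold changes were -1.29, -1.02 and -1.05 (adjusted p = 0.00203, 0.0166 and 0.00484, edgeR). Ermn stood at 194, 218 and 229 CPM at 1 wpt, 250.4, 248 and 209 CPM at 2 wpt and 213, 148, 252 and 231 CPM at 4 wpt, between 47.2% and 52.7% of its Intact mean. Mbp stood at 16058, 14036 and 16064 CPM, 18477, 18395 and 18828 CPM and 16657, 9718, 14574 and 15838 CPM at the same weeks. All 10 +MSC libraries were below Intact for Mobp, Ermn, Mbp, Mog, Mag and Cnp, as they were for 14.5% of all genes tested.

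Mal was below Intact at 1 and 2 wpt and reached it in 1 library at 4 wpt, 462 CPM against 425 CPM. Opalin stood at 166, 158 and 210.0 CPM, 187, 142 and 136 CPM and 151, 103, 165 and 209 CPM at 1, 2 and 4 wpt. Those are 103%, 90.1% and 91.3% of the Intact mean, and the ranges overlapped Intact at each week. Cldn11 also overlapped Intact at each week, with log2 fold changes of 0.13, -0.11 and -0.046, and none passed the test.

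Single libraries decided several of these counts. At 1 wpt, 0 genes were called without +MSC-1w replicate 1 and 1 (Ermn) without replicate 2, and Mbp was also lost without +MSC-1w replicate 3 or Intact replicate 1, 2 or 4. At 2 wpt, Mobp was called without +PBS-1w replicate 2 or 3, which enter only the shared estimate of the spread and the scaling. At 4 wpt, 1 gene (Mbp) was called without +MSC-4w replicate 2, the library with the lowest value of all 9 genes in its group, and 4, with Mog added, without replicate 1. Mobp, whose log2 fold change was near the threshold there, was lost without Intact replicate 2, 3 or 4 as well, and without +MSC-4w replicate 3 or 4. On library totals without TMM only Mbp was called at 4 wpt.

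**Figure D2:**
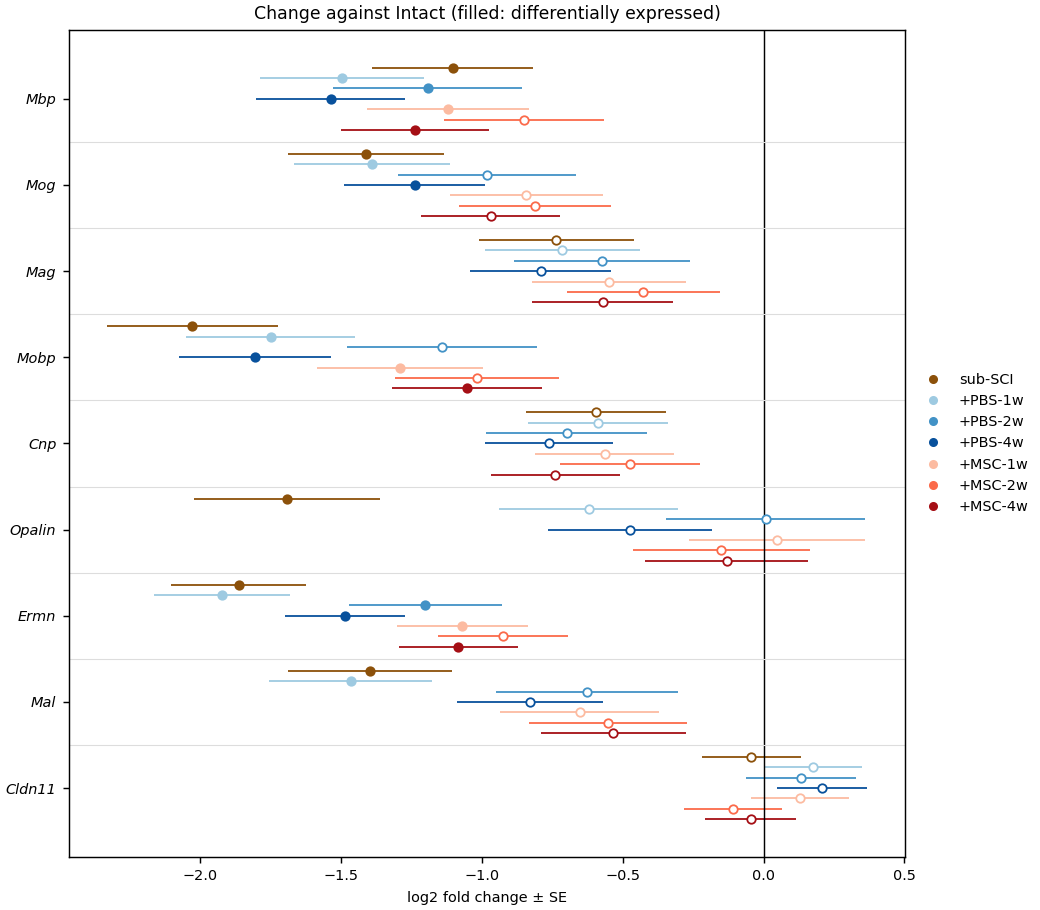
Log2 fold change against Intact (x axis, with SE as bars) of each gene (y axis) in the 7 injured groups (colours), from edgeR on all 26 libraries. Filled points passed both thresholds of differential expression. Mobp, Ermn, Mog and Mbp are left of 0 in each group, Opalin is at -1.69 in sub-SCI and between -0.62 and 0.048 afterwards, and Cldn11 is between -0.11 and 0.21.

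The cords at 4 wpt were also compared with sub-SCI, the state at the time of injection. Only Opalin was called higher, in both treatments, and no gene was called lower. Its log2 fold change was 1.22 after PBS (SE 0.324, adjusted p = 0.00872) and 1.56 after hUC-MSCs (SE 0.328, adjusted p = 0.000697) by edgeR. Of all genes tested, 4.28% and 10.2% were called higher in these comparisons, which share the 3 sub-SCI libraries. The lowest Opalin value of the 8 libraries at 4 wpt, 99.1 CPM, was above the highest sub-SCI library, 83.2 CPM. Mal also lay wholly above sub-SCI after PBS, with a lowest value of 282 against a highest of 261 CPM. After hUC-MSCs, where its lowest value was 240 CPM, Mal overlapped sub-SCI. The share of all genes without overlap in these comparisons is not given here.

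Of the other genes, Mobp (log2 fold change 0.98, SE 0.29, adjusted p = 0.00994), Ermn (log2 fold change 0.78, SE 0.231, adjusted p = 0.00965) and Mal (log2 fold change 0.86, SE 0.284, adjusted p = 0.0182) were higher than sub-SCI after hUC-MSCs at the looser threshold of edgeR, with changes of less than 1 on the log2 scale. With Opalin that made 4 of the 9, against 22.2% of all genes tested. After PBS their values were 0.22 (Mobp), 0.38 (Ermn) and 0.57 (Mal), and none passed the test, where 13.4% of all genes tested were higher at the looser threshold. Mbp, the most abundant, did not pass the test in either (log2 fold changes -0.43 after PBS and -0.13 after hUC-MSCs). The call of Opalin after PBS lay close to the threshold and was lost in 16 of the 26 fits that left out 1 library, among them those without sub-SCI replicate 1 or 3 or +PBS-4w replicate 1, 2 or 3, while its adjusted p over all the alternatives ran from 0.0018 to 0.119. After hUC-MSCs it was lost only when the 8 libraries labelled replicate 1 were left out (adjusted p = 0.0144), and 3 genes were called without +MSC-4w replicate 2, with Mal and Mobp added.

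Whether hUC-MSCs changed these genes was asked against PBS at the same week. No gene passed the thresholds of differential expression at 1, 2 or 4 wpt or over the mean of the weeks by edgeR, where 0.0111%, 0%, 0.495% and 2.57% of all genes tested did, and DESeq2 also called 0 in each. At the looser threshold edgeR gave 0 genes in each week. DESeq2 on all libraries gave Ermn at 1 wpt (adjusted p = 0.0417). DESeq2 on the groups compared gave Mal at 1 wpt (adjusted p = 0.00694) and Mobp at 4 wpt (adjusted p = 0.0426). Each of these genes was higher with hUC-MSCs. The share of all genes at that threshold in the DESeq2 fits is not given here, so these DESeq2 results have no background. At an unadjusted p under 0.05 edgeR gave 2 genes at 1 wpt (Ermn and Mal), 0 at 2 wpt, 1 at 4 wpt (Mobp) and 3 over the mean of the weeks (Mobp, Ermn and Mal), where 17.9%, 12.3%, 22.5% and 36.2% of all genes tested had one. The +MSC mean was the higher one for 8, 7 and 8 of the 9 genes at 1, 2 and 4 wpt. The median log2 differences were 0.46, 0.15 and 0.30, against -0.0018, 0.0019 and -0.039 over all genes tested. The 9 genes varied together between libraries: with group means removed, Pearson's r between pairs ran from 0.35 to 0.97. Their directions are therefore not independent of each other. At 2 wpt the direction rested on the libraries labelled replicate 1: with replicates 2 and above only, 2 of the 9 genes were higher with hUC-MSCs and the median was -0.038.

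Ermn was the 1 gene that passed the looser threshold over the mean of the weeks (log2 fold change 0.51, SE 0.141, adjusted p = 0.0135, edgeR), where 12.3% of all genes tested were called higher at that threshold. At 1 wpt it stood at 194, 218 and 229 CPM after hUC-MSCs and at 135, 155 and 64.5 CPM after PBS, with no overlap, and at that week 15.3% of all genes tested lay wholly above +PBS. At 2 wpt the values were 250.4, 248 and 209 CPM and 157 and 232 CPM, and at 4 wpt 213, 148, 252 and 231 CPM and 158, 149.9, 144 and 187 CPM. Here 2 of 3 and 3 of 4 +MSC libraries were above every +PBS library. Without +PBS-2w replicate 1 the adjusted p of Ermn was 0.101, and without the 8 libraries labelled replicate 1 it was 0.133.

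Mal at 1 wpt was the other gene without overlap, at 321, 264 and 414 CPM after hUC-MSCs and 159, 199.6 and 209.7 CPM after PBS (log2 fold change 0.81, SE 0.3, adjusted p = 0.173, edgeR). Mobp at 4 wpt stood at 1659.7, 798, 1304 and 1233 CPM against 799.8, 627, 884 and 654 CPM (log2 fold change 0.75, SE 0.264, adjusted p = 0.0993, edgeR). There 3 of the 4 +MSC libraries exceeded every +PBS library, and the fourth, replicate 2, lay among them. Without +PBS-4w replicate 1 the difference of Mobp was 0.76 (adjusted p = 0.0701, edgeR). At 2 wpt Mbp and Cnp did not overlap between treatments, by margins of 18395 against 16212 CPM (Mbp) and 1462 against 1434 CPM (Cnp), and 18.6% of all genes tested likewise lay wholly above +PBS. At 4 wpt 0 of the 9 genes and 6.08% of all genes did.

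Cldn11 was the gene with lower values after hUC-MSCs at each week, with log2 differences of -0.047, -0.24 and -0.25, none past the test. At 1 wpt its sign turned with the library left out, from -0.19 to 0.099. The effect of hUC-MSCs was also compared between weeks, and in 27 such tests of the 9 genes the smallest unadjusted p was 0.111 by edgeR's model, with no adjusted p below 0.999. At 1 wpt the values leaned on +PBS-1w replicate 3, the lowest library for 7 of the 9 genes. Without it the log2 difference was 0.56 for Ermn, 0.89 for Mal, 0.08 for Mbp and 0.10 for Mobp.

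**Figure D3:**
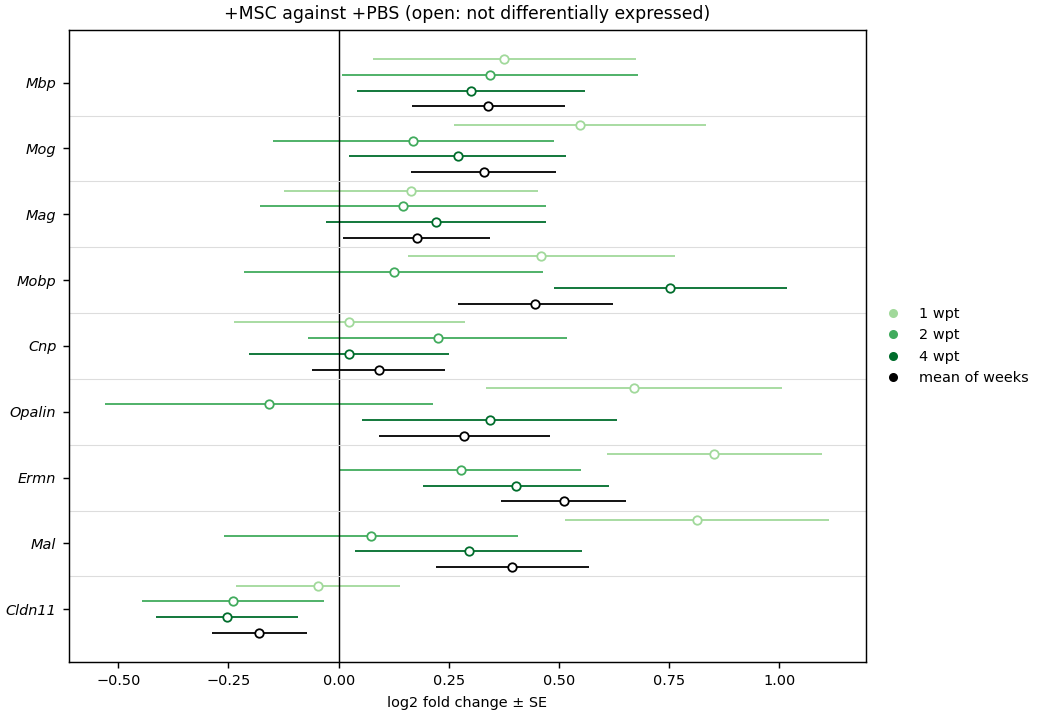
Log2 fold change of +MSC against +PBS (x axis, with SE as bars) of each gene (y axis) at 1, 2 and 4 wpt and over the mean of the weeks (colours), from edgeR on all 26 libraries. Open points did not pass the thresholds of differential expression, and none did. Means over the weeks run from -0.18 for Cldn11 to 0.51 for Ermn.

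In some groups single libraries were low or high for the whole set. The lowest value of all 9 genes fell in the same library in sub-SCI (replicate 3), +PBS-2w (replicate 1) and +MSC-4w (replicate 2), and the highest value of all 9 in +MSC-1w replicate 3 and +PBS-2w replicate 2. In other groups they were spread: the lowest values fell in 4 libraries of Intact and in 3 each of +MSC-2w and +PBS-4w. With group means removed, Pearson's r between pairs of the genes over the 26 libraries was as low as 0.35 (Opalin and Cldn11) and as high as 0.97 (Mbp and Mag), and the median r of a gene with the other genes ran from 0.43 for Cldn11 and 0.47 for Mal to 0.85 for Mag. The summed level of the other myelinating oligodendrocyte genes was lowest in the same libraries of sub-SCI (8425 CPM), +PBS-2w (14036 CPM) and +MSC-4w (11626 CPM). Replicate 1 was the highest library of its group in at most 4 of 8 groups for any gene (Mog) and the lowest in at most 4 (Mal).

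Across groups the genes fell into unequal courses, and ratios within a library restate this without any scaling between libraries. The pairs join genes whose courses differed above, so these ratios describe the courses and are no separate support for them. The log2 ratio of Cldn11 to Mobp was between -1.20 and -0.98 in the 4 Intact libraries and between -0.60 and 2.06 in the 22 injured libraries, with no overlap. The log2 ratio of Opalin to Ermn was between -1.58 and -1.13 in Intact, between -1.85 and -0.62 in sub-SCI, and between -0.92 and 0.15 in the 19 later libraries. In sub-SCI this ratio overlapped Intact, while Opalin stood higher relative to Ermn in each later library than in any Intact library. The ratio of Opalin to Mobp likewise overlapped Intact in sub-SCI and not in the later libraries, which were between -3.45 and -2.24 against between -4.17 and -3.66.

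The 4 genes that Schwann cells also use (Mbp, Mag, Cnp and Mal) had a median log2 fold change of -0.92 in sub-SCI (range -1.40 to -0.60). The 5 genes of the central sheath had -1.69 (range -2.03 to -0.043). At 4 wpt after PBS the medians were -0.81 (range -1.54 to -0.76) and -1.24 (range -1.81 to 0.21). After hUC-MSCs they were -0.66 (range -1.24 to -0.53) and -0.97 (range -1.08 to -0.046). The ranges of the subgroups overlapped in each comparison, and the difference between them was not tested. The 8 Schwann cell myelin genes summed to between 2080 and 4321 CPM in +PBS-4w, between 485 and 2480 CPM in +MSC-4w, between 487 and 1041 CPM in sub-SCI and between 171 and 1757 CPM in Intact. The part of Schwann cells in the levels of the shared genes was not tested.

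Per kilobase of gene length, Mbp was the most abundant of the 9 in Intact at 9926 ± 519 CPM per kb, followed by Cnp at 917 ± 122, Mobp at 676 ± 33.5 and Cldn11 at 664 ± 61.3 CPM per kb, with overlapping ranges of Mobp and Cldn11 only. Mag stood at 531 ± 32.5, Ermn at 243 ± 7.99, Mog at 242 ± 14.0, Mal at 230.5 ± 38.6 and Opalin at 62.8 ± 8.20 CPM per kb. In sub-SCI the second place went to Cldn11 at 644 ± 215 CPM per kb, level with Cnp at 607 ± 218, while Mobp was at 166 ± 43.2 CPM per kb. In the order of group means Intact came first for 7 genes, the exceptions being Opalin and Cldn11, and the step from Intact to +MSC-2w was the only one between neighbours without overlap for Mbp, Mog, Mag, Mobp, Cnp and Ermn. For Mal that step was the one from +PBS-4w down to sub-SCI, and for Opalin and Cldn11 all neighbours overlapped.

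The shared course of the 9 genes was taken as the mean of their centred log2 CPM over the 26 libraries. The genes outside the set that followed it most closely by Pearson's r were Aplp1 (0.973), Tmem88b (0.968), Grik4 (0.963), Slc6a9 (0.962), Tmcc2 (0.961), Dennd5a, Bspry, Apbb1, Kcna6 and Gpr37 (0.956 to 0.957). As many as 1807 genes had an r above 0.8. Within the set r ran from 0.966 for Mog, 0.959 for Mobp and 0.953 for Ermn down to 0.744 for Opalin and 0.17 for Cldn11. Each of the 9 genes is itself part of that mean, which raises its r, so these values are not comparable with those of outside genes. These are descriptions over libraries that share groups, so that the step from Intact to injury enters each r.

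The rest of the myelinating lineage was followed through lists. Of 27 other genes of myelinating oligodendrocytes, 14 were called lower and 0 higher in sub-SCI, with a median log2 fold change of -1.13. Of all genes tested, 17.5% were called lower there. Omg, a myelin glycoprotein, was at -1.99 (adjusted p = 1.62e-05) and Sirt2, a deacetylase, at 0.38 (adjusted p = 0.183) by edgeR. Against Intact 13 were called lower in +PBS-4w and 7 in +MSC-4w, where 10.7% and 1.53% of all genes tested were. Between treatments over the mean of the weeks 0 were called, where 2.57% of all genes tested were. In that comparison 23 of 27 were on the side of +MSC, and the share of all genes on that side is not given here. At the looser threshold 3 were higher with hUC-MSCs (Gpr37 at 0.52, Omg at 0.56 and Tppp at 0.59) and 0 lower, against the 12.3% of all genes given above. The 10 transcription factors of the lineage were on the whole less changed in sub-SCI (median -0.63), with 1 called, Tcf7l2, at 1.74 (adjusted p = 7.85e-07), a Wnt effector that newly forming oligodendrocytes and other cells use. Olig1 (-0.90, adjusted p = 0.012), Olig2 (-0.77, adjusted p = 0.0142) and Zfp536 (-0.93, adjusted p = 1.27e-06) were lower without passing both thresholds of edgeR.

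Of 7 precursor markers tested, 2 were higher in sub-SCI, Pdgfra at 1.05 (adjusted p = 0.00857), the receptor that defines precursors but is also made by fibroblasts, and Vcan at 1.67 (adjusted p = 6.63e-07), a matrix proteoglycan. Cspg4, the NG2 proteoglycan, was at 0.37 (adjusted p = 0.077) and Gpr17, a receptor of committed precursors, at -0.29 (adjusted p = 0.565). In +PBS-4w 2 were higher, Pdgfra at 1.27 (adjusted p = 0.00166) and C1ql1, a secreted C1q-like protein, at 1.48 (adjusted p = 0.000162), with Vcan at -0.062 (adjusted p = 0.814). Of the 8 Schwann cell genes 1 was called higher in sub-SCI, Egr2 at 2.47 (adjusted p = 0.00161), which immune cells also use, and 2 in +PBS-4w, Egr2 at 3.58 (adjusted p = 5.74e-05) and Pmp22 at 1.44 (adjusted p = 0.00923). Ncmap was at -1.24 (adjusted p = 0.26) in sub-SCI, and all of these values came from edgeR.

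Other cell types moved with the same comparison. In sub-SCI, 9 of 10 neuron markers and 4 of 8 astrocyte markers were lower, and 8 of 10 microglia and macrophage markers, 2 of 5 endothelial markers and 8 of 8 fibroblast and scar matrix genes were higher. Over all genes tested 17.5% were called lower. The share called higher against Intact is not given here, so these counts and those of the precursor and Schwann cell lists have no background. Over the mean of the weeks, 3 of 10 neuron markers were higher with hUC-MSCs than with PBS (median log2 difference 1.00), 1 microglia and macrophage marker (median -0.20) and 1 endothelial marker (median -0.33) were lower, and 0 astrocyte (median 0.25), fibroblast and scar matrix (median -1.23) or Schwann cell genes (median -0.64) were called. At the looser threshold 9 of 10 neuron and 2 of 8 astrocyte markers were higher and 8 of 8 fibroblast and scar matrix genes, 3 of 10 microglia and macrophage markers and 2 of 5 endothelial markers were lower, while 0 of 8 Schwann cell genes passed it, all 8 being on the lower side. At that threshold 12.3% of all genes tested were higher, and the share that was lower is not given here. What share of the myelin differences went with these cells was not tested.

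**Figure D4:**
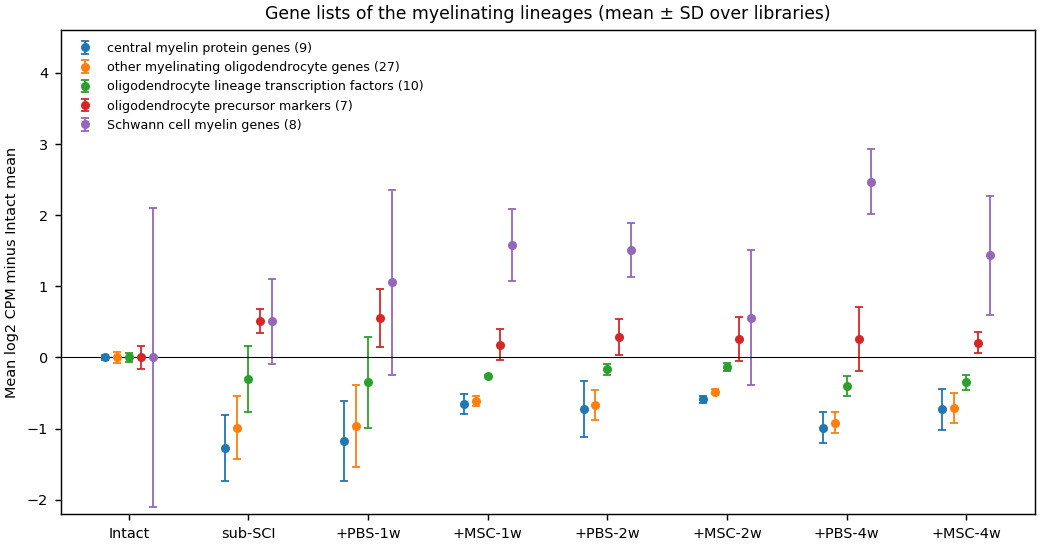
Mean log2 CPM over the genes of 5 lists (colours, number of genes in brackets) minus the Intact mean of that list (y axis), by group (x axis), with SD over libraries as bars. The 9 central myelin protein genes and the 27 other oligodendrocyte genes are lowest in sub-SCI and +PBS-1w, precursor markers lie at or above 0, and Schwann cell genes spread widely, also among Intact libraries.

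The counts of 4 genes carry an added doubt. In RefSeq, Mog overlaps Zfp57, and Mbp, Mag and Mal each overlap at least 1 uncharacterised gene, and whether counting used the strand was not given in the sources used here, so reads from overlapping exons cannot be assigned with certainty. Mobp, Cnp, Opalin, Ermn and Cldn11 had no such overlap.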

How the data were processed

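Per the labels and the study's methods, the authors trimmed paired-end reads with Trim Galore 0.5.0, discarded reads with a match in the human assembly GRCh38, placed the remainder on the rat assembly Rnor6 with HISAT2 2.1.0, kept proper pairs with SAMtools 1.9 and deposited whole-number counts per gene from featureCounts 1.6.4. Reads of conserved stretches can be lost in the human filter, and the annotation release is not given in the sources used here. The files of all 26 libraries matched the joint table. Groups and replicate numbers came from the labels, which give 3 +MSC-2w and 2 +PBS-2w libraries. The methods give these numbers the other way round, and elsewhere the study's text has 3 +MSC-2w samples. The methods speak of biological replicates.

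Counts of 17990 genes that passed filterByExpr were fitted with edgeR 4.0.16 (R 4.3.3): TMM, 8 group levels, no covariates, all libraries in 1 fit, quasi-likelihood tests of 13 comparisons with Benjamini-Hochberg adjustment over all genes tested. Differential expression meant |log2 fold change| above 1 and adjusted p under 0.01, the authors' thresholds, with adjusted p under 0.05 as a looser one. Where all libraries enter 1 fit, a left-out library of any group can move a call through the shared spread. DESeq2 1.42.0, other scalings and filters, left-out libraries and blocks were alternatives, and those on library totals and on +MSC-2w replicates 2 and 3 summed were added after seeing the data. The fits were tested on simulated data first. Library totals are given with the results, and their size limits counting error alone.

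The 9 genes and the lists were chosen with earlier results of these data known. All 9 genes are named. From other lists, the first 2 genes, those with the largest and smallest log2 fold change in sub-SCI and, in short sets of calls, the called genes are named, besides the 10 genes most like the mean of the 9 genes (log2 CPM with a prior count of 2). Some genes that this rule would name are not reported here. Lhfpl3, Pecam1 and Ly6c1 were not analysed here, and Tmem125, in the table more than once, was left out. Promoters came from RefSeq (GRCr8), and protein sequences were not used here.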

Additional observations from a re-analysis of the deposited data

How the results depend on the processing

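Each of 117 values (9 genes in 13 comparisons) was recomputed with up to 37 other settings. Of 2205 values 2146 kept their direction and 59 did not, and 0 of the latter belonged to a gene called in the fit as reported. The counts of genes called in sub-SCI, +PBS-1w and +PBS-4w against Intact and of +MSC against +PBS at each week stayed within 1.5 times under every setting. The cause of the changes below was not tested. For +PBS-2w against Intact the count of 2 became 1 with no filter on low counts or with +MSC-2w replicates 2 and 3 summed, 4 with a term for the replicate 1 libraries, 0 with replicates 2 and above only (which leaves 1 +PBS-2w library, assumed to vary like the other groups) and 0 to 3 with 1 library left out. For +MSC-1w it became 0 with replicates 2 and above only and 0 to 3 with 1 library left out. For +MSC-2w it became 1 with DESeq2 on all libraries and 0 to 1 with 1 library left out. For +MSC-4w it became 1 on library totals without TMM and 1 to 4 with 1 library left out. Opalin as the 1 gene higher in +PBS-4w than in sub-SCI was lost (0 genes) with median-of-ratios size factors, no filter, the replicate block, replicates 2 and above only, the summed +MSC-2w libraries and edgeR on the groups compared, and the count was 0 to 1 with 1 library left out. In +MSC-4w against sub-SCI the count became 2 on library totals, 0 with replicates 2 and above only, and 1 to 3 with 1 library left out. Over the mean of the weeks, the 1 gene at an adjusted p under 0.05 (edgeR) became 0 with replicates 2 and above only, 2 with DESeq2 on the groups compared and 0 to 4 with 1 library left out (0 without +PBS-2w replicate 1, 4 without +PBS-1w replicate 2).

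Directions turned as follows, on the log2 scale. Cldn11 in sub-SCI against Intact was 0.013 with no filter and 0.0060 with at least 10 counts in every library, and in +MSC-4w against Intact 0.044 on library totals. Opalin in +PBS-2w against Intact was -0.10 with the replicate block. Cnp in +MSC-1w against +PBS-1w was -0.012 with median-of-ratios size factors and with DESeq2 on all libraries, -0.011 with at least 10 counts and -0.017 with edgeR on the groups compared. With replicates 2 and above only, +MSC-2w against +PBS-2w gave -0.027 for Mog, -0.038 for Mag, -0.20 for Mobp, -0.033 for Ermn and -0.33 for Mal, +PBS-4w against sub-SCI gave 0.11 for Mag, and +MSC-4w against sub-SCI gave 0.080 for Mbp, 0.18 for Cnp and 0.31 for Cldn11. Cldn11 in the last comparison was also 0.052 on library totals, 0.0010 with a term for the replicate 1 libraries and 0.0030 with edgeR on the groups compared. With 1 library left out the ranges that crossed 0 were -0.35 to 0.11 for Cldn11 in sub-SCI against Intact, -0.57 to 0.45 for Opalin and -0.034 to 0.31 for Cldn11 in +PBS-2w against Intact, -0.088 to 0.13 for Opalin in +MSC-1w against Intact, -0.30 to 0.025 for Opalin and -0.097 to 0.010 for Cldn11 in +MSC-4w against Intact, -0.13 to 0.59 for Mag, -0.23 to 0.38 for Cnp and -0.19 to 0.099 for Cldn11 in +MSC-1w against +PBS-1w, -0.043 to 0.37 for Mag, -0.15 to 0.48 for Mobp, -0.57 to 0.42 for Opalin and -0.36 to 0.71 for Mal in +MSC-2w against +PBS-2w, -0.069 to 0.19 for Cnp in +MSC-4w against +PBS-4w, -0.12 to 0.38 for Mog, -0.29 to 0.27 for Mag and -0.38 to 0.15 for Cnp in +PBS-4w against sub-SCI, and -0.34 to 0.20 for Mbp, -0.072 to 0.49 for Mag, -0.35 to 0.18 for Cnp and -0.16 to 0.30 for Cldn11 in +MSC-4w against sub-SCI.

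Numbers were to be taken as pairs where the deviations of every same-numbered pair correlated above 0.1. No comparison met this (correlations between -0.16 and 0.32), though every pair was above 0 in +PBS-1w (0.046 to 0.24) and +MSC-1w (0.039 to 0.22) against Intact and in +MSC-4w against +PBS-4w (0.016 to 0.23). Between 3 and 6 libraries of a comparison correlated best with their own number, at most 5 of 6 (+PBS-1w against Intact) and 6 of 8 (+MSC-4w against +PBS-4w), as a hint from the data. The replicate block moved the count of called genes from 2 to 3 in +PBS-2w against Intact and from 1 to 0 in +PBS-4w against sub-SCI, and changed no other count. Depth was not limiting for the 9 genes, whose counts were 1028 or more in every library, while groups of 2 to 4 libraries limit the precision of each difference.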
